A study of Sus scrofa with 11 samples.

Results

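Expression of 8 elastic fibre genes was followed in porcine coronary arteries, native or kept in a bioreactor. The genes were chosen by name as ELN, FBN1, FBLN1, FBLN5, EFEMP2, MFAP4, MFAP5 and LTBP4, and were matched by symbol to Ensembl pig identifiers, out of 25880 genes in the count tables. The filter on low counts was passed by 7 of the 8, and MFAP4 did not pass it. RNA of whole vessels was sequenced in 11 libraries for a study of vessel culture as a setting for testing stents. Native arteries gave 2 libraries. Stented vessels without flow (Stent/Flow-, here stented static) gave 2 and stented vessels under the stronger flow (Stent/Flow++, stented high-flow) gave 3. Vessels without a stent gave 2 libraries under the stronger flow (Flow++, high-flow) and 2 under the weaker flow (Flow+, low-flow). The 4 cultured groups share the bioreactor, and none of the groups used here combined culture with neither stent nor flow. The sources used here give no strain, age or culture time, and tie no library to an animal. Both stented static libraries carry a d suffix of 3 in their labels and stented high-flow library 3 one of 7, with no meaning given, and the number 25 stands in the labels of native library 2 and of stented high-flow library 1.

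Elastic fibres give arteries their recoil. Smooth muscle cells of the medial layer, and adventitial fibroblasts, secrete the soluble elastin precursor, which is laid onto a scaffold of fibrillin microfibrils and crosslinked by lysyl oxidases. Fibulins and latent TGF-beta binding proteins bring elastin, crosslinking enzymes and microfibrils together. Most elastin of an adult artery was deposited early in life and turns over slowly, so a transcript level is not a measure of the fibre present.

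Levels are CPM, counts scaled to a common library size after correction for composition, given per library in replicate order or as mean ± SD with n = 2, and n = 3 in stented high-flow. Changes are log2 fold changes ± standard error, and a gene is said to have changed where its adjusted p was under 0.05 in the quasi-likelihood F-test of edgeR, adjusted over the 15348 genes tested by the method of Benjamini and Hochberg. These p-values weigh a difference between groups only against how far these samples differ within groups, a spread that may be technical. Libraries are numbered by replicate, and lists of values for the cultured groups keep the fixed order of stented static, stented high-flow, high-flow, low-flow. Library totals were 13496636 to 26785124 counts. Because whole vessels were sequenced, fewer cells of a type and less RNA per cell cannot be told apart. All comparisons with native use the same 2 native libraries.

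The core protein of the fibre is elastin, encoded by ELN (ENSSSCG00000025858, chromosome 3, 11214194 to 11245891 in Sscrofa11.1). ELN stood at 4730.3 and 5307 CPM in the native libraries. It stood at 295 and 881 CPM in stented static, at 519, 329.8 and 635 CPM in stented high-flow, at 425 and 489.7 CPM in high-flow and at 1587 and 945 CPM in low-flow vessels. All 9 cultured libraries lay below both native ones, and both low-flow libraries lay above the other 7 cultured ones. The share of all genes with that order of cultured libraries was not counted. Against native, ELN fell in stented vessels without flow (-3.09 ± 0.53, adjusted p = 0.00468) and with it (-3.34 ± 0.46, adjusted p = 0.000720). It also fell in unstented vessels under the stronger (-3.46 ± 0.54, adjusted p = 0.00262) and the weaker flow (-1.99 ± 0.51, adjusted p = 0.0281). Over the 4 cultured groups, weighted equally, ELN was 7.83-fold lower than in native (-2.97 ± 0.33, adjusted p = 0.000111). The low-flow call was lost without native library 1 (adjusted p = 0.0994), native library 2 (0.127), low-flow library 1 (0.101) or low-flow library 2 (0.200). The stented static value was -2.49 without replicate 1 and -4.09 without replicate 2 of that group.

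**Figure D1:**
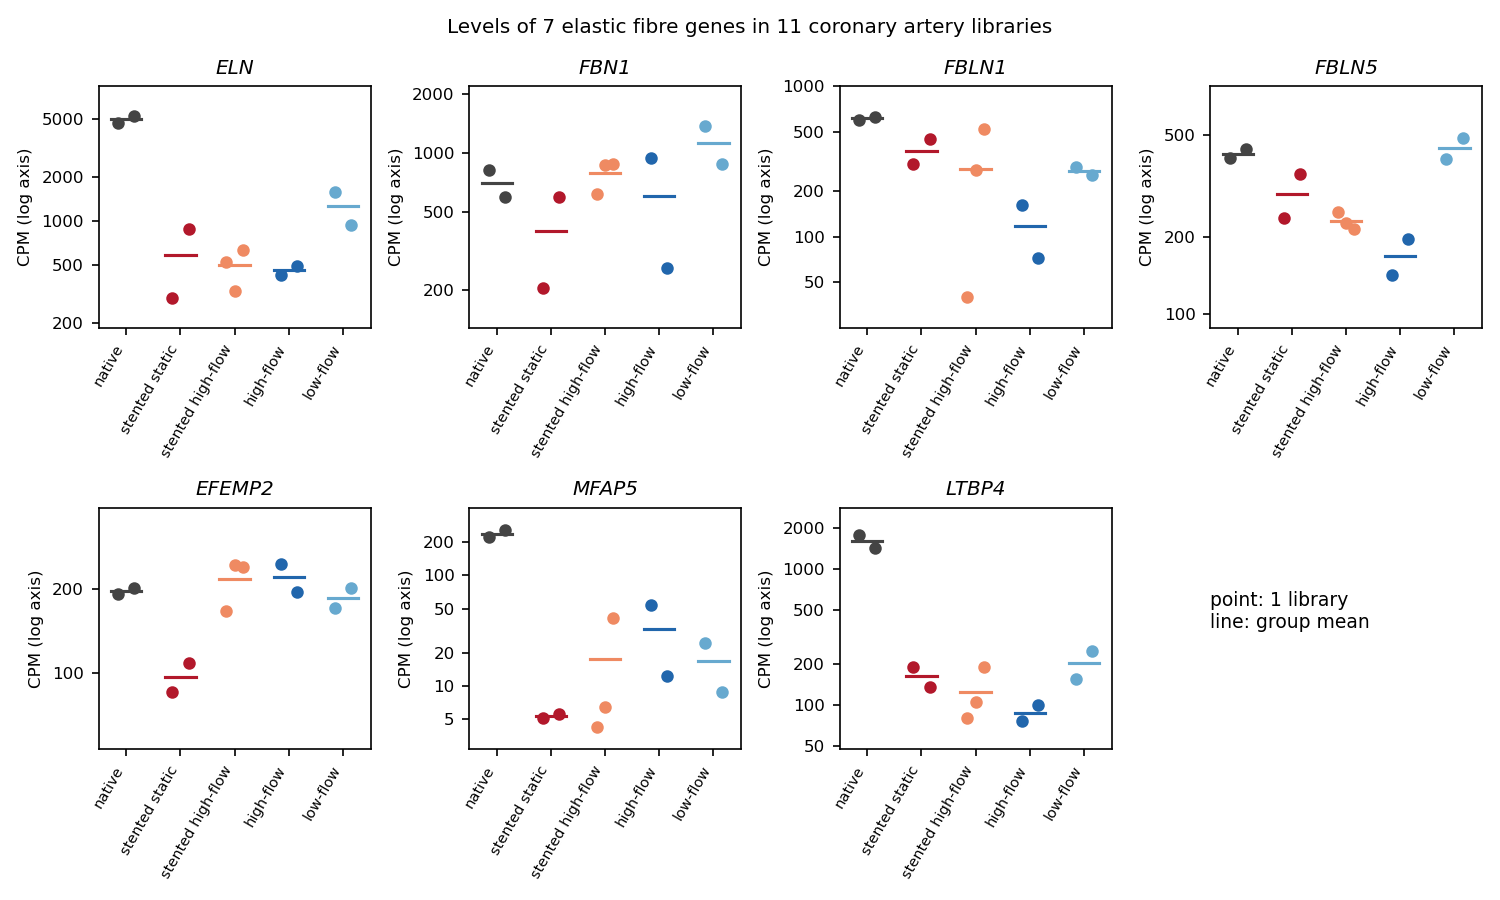
CPM of the elastic fibre genes in each of the 11 libraries, 1 panel per gene that passed the filter, on log axes, with points for libraries and bars for group means. ELN, FBLN1, MFAP5 and LTBP4 show all 9 cultured libraries below both native ones, while FBN1 and EFEMP2 overlap native in most groups.

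LTBP4 (ENSSSCG00000033760, chromosome 6, 48831018 to 48861503) encodes latent TGF-beta binding protein 4, which binds fibulin-5 and guides elastin onto microfibrils. Native libraries held 1772 and 1422 CPM. LTBP4 stood at 189 and 136 CPM in stented static, at 80.1, 105 and 189 CPM in stented high-flow, at 75.6 and 99.3 CPM in high-flow and at 155 and 248 CPM in low-flow libraries. The highest cultured library, low-flow library 2, was still far below the lower native one. LTBP4 fell in all 4 groups against native, with -3.30 ± 0.45 in stented static (adjusted p = 0.00163), -3.68 ± 0.39 in stented high-flow (0.000190), -4.19 ± 0.47 in high-flow (0.000699) and -2.98 ± 0.44 in low-flow vessels (0.00250). Over the cultured groups it was 11.6-fold lower (-3.54 ± 0.28, adjusted p = 1.26e-05). All of these calls were kept under each alternative that was run, including the omission of any single library.

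MFAP5 (ENSSSCG00000031712, chromosome 5, 62742520 to 62757522) encodes MAGP-2, a small glycoprotein attached to microfibrils. It stood at 220.3 and 255 CPM in native libraries. The cultured libraries held 5.14 and 5.596 CPM in stented static, 4.31, 6.45 and 41.3 CPM in stented high-flow, 53.4 and 12.2 CPM in high-flow and 24.5 and 8.88 CPM in low-flow. No cultured library reached a native one, and within stented high-flow library 3 stood 9.60 times above replicate 1. MFAP5 fell in stented static (-5.47 ± 1.14, adjusted p = 0.0123), stented high-flow (-3.77 ± 0.89, adjusted p = 0.0116) and low-flow vessels (-3.83 ± 1.05, adjusted p = 0.0366), and over the cultured groups it was 15.8-fold lower (-3.98 ± 0.62, adjusted p = 0.000989). In high-flow vessels its value was -2.86 ± 1.00 (adjusted p = 0.0795), a difference that passed under limma-voom (0.0220), without a filter (0.0131), with the replicate number as a block (0.0131), with only the groups compared (0.0162) and with the libraries of 1 count table (0.0162).

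Several MFAP5 calls were lost when a single library was left out. In those fits the MFAP5 value ranged from -5.57 to -5.31 in stented static vessels. It ranged from -5.46 to -3.29 in stented high-flow and from -4.73 to -3.27 in low-flow vessels. The stented static call was lost without native library 2 (edgeR adjusted p = 0.0546), stented static library 1 (0.0792) or stented static library 2 (0.0507), and the stented high-flow call without native library 2 (0.0559). The low-flow call was lost without native library 1 (0.109), native library 2 (0.124), low-flow library 1 (0.127) or low-flow library 2 (0.221), with a value of -4.73 in the fit without low-flow library 1. Without stented high-flow library 3, the one whose label has the d suffix of 7, the stented high-flow value was -5.46.

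Fibrillin-1, the backbone of the microfibril, is encoded by FBN1 (ENSSSCG00000004658, chromosome 1, 123102011 to 123359649). Its native libraries held 820.3 and 592 CPM. The cultured libraries held 205 and 597 CPM in stented static, 613, 869.5 and 883 CPM in stented high-flow, 948 and 257 CPM in high-flow and 1375 and 878 CPM in low-flow. Both low-flow libraries stood above both native ones, as they did for 33.5% of all genes, and in each of the other cultured groups the values overlapped native. FBN1 passed in no comparison with native, with values of -0.82 ± 0.60, 0.16 ± 0.55, -0.23 ± 0.60 and 0.67 ± 0.60 in the 4 cultured groups in the fixed order (adjusted p = 0.401 to 0.861). Over the cultured groups the value was -0.05 with a 95% interval from -1.08 to 0.97. These libraries leave room for a change within those bounds. The remaining microfibril gene, MFAP4 (ENSSSCG00000036007, chromosome 12, 60141488 to 60144214), which encodes a microfibril-associated glycoprotein, had 1 count in stented static library 1 and 0 in the other 10 libraries. A count of 0 allows up to 3 counts, or 0.112 to 0.222 CPM on unscaled totals, in a library. That bound covers counting error only. Whether the annotation behind the counts covers the MFAP4 transcript could not be checked, so the counts do not show that MFAP4 is silent.

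Among the fibulins, which bridge elastin and microfibrils, FBLN5 (ENSSSCG00000002444, chromosome 7, 113423629 to 113526412) encodes fibulin-5, an adaptor that binds elastin and cell-surface integrins. FBLN5 stood at 403 and 438 CPM in native, 235 and 351 CPM in stented static, 250.4, 226 and 214 CPM in stented high-flow, 141 and 196.2 CPM in high-flow and 403 and 483 CPM in low-flow libraries. Low-flow vessels overlapped native, and the other 7 cultured libraries all lay below it. FBLN5 fell in high-flow (-1.32 ± 0.29, adjusted p = 0.0136) and stented high-flow vessels (-0.87 ± 0.26, adjusted p = 0.0323), against -0.52 ± 0.29 (0.256) in stented static and 0.07 ± 0.29 (0.897) in low-flow. The high-flow call was lost without native library 1 (0.0626), native library 2 (0.0912) or high-flow library 1 (0.111). The stented high-flow call was lost without native library 1 (0.116), native library 2 (0.183), stented high-flow library 2 (0.0904) or replicate 3 (0.0741). It was also lost with the replicate number as a block (0.0919), with library totals alone (0.0761) and with the libraries of 1 count table (0.0575). Over all cultured groups FBLN5 was at -0.66 ± 0.22 (adjusted p = 0.0445), a call lost without 8 of the 11 libraries taken singly (0.0532 to 0.305), with upper-quartile factors (0.0515), with library totals alone (0.216), without a filter (0.0689) and with the replicate block (0.0605).

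EFEMP2 (ENSSSCG00000012971, chromosome 2, 6455155 to 6463493) encodes fibulin-4, which tethers lysyl oxidase to elastin. EFEMP2 stood at 192 and 200.5 CPM in native and at 85.04 and 109 CPM in stented static libraries. It stood at 166, 243 and 240.1 CPM in stented high-flow, 244.5 and 195 CPM in high-flow and 170.1 and 200.4 CPM in low-flow. The stented static libraries were the 2 lowest of the 11, and each of the other cultured groups overlapped native. EFEMP2 fell in stented static vessels (-1.02 ± 0.28, adjusted p = 0.0394), and was at 0.14 ± 0.26, 0.16 ± 0.28 and -0.08 ± 0.28 in the remaining cultured groups in order (adjusted p = 0.729 to 0.878). The stented static call was lost without native library 1 (0.152), native library 2 (0.216), stented static library 1 (0.220) or stented static library 2 (0.0664). It was also lost with scaling by library totals alone (0.129), without a filter (0.0504), with the replicate number as a block (0.0540), with only the groups compared (0.0776) and with the libraries of 1 count table (0.0868).

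FBLN1 (ENSSSCG00000000010, chromosome 5, 3839498 to 3927178) encodes fibulin-1, found in the elastin core and in basement membranes. FBLN1 stood at 601 and 629 CPM in native, 306 and 443 CPM in stented static, 39.7, 279.9 and 523 CPM in stented high-flow, 162 and 72.5 CPM in high-flow and 291 and 257 CPM in low-flow libraries. All 9 cultured libraries lay below both native ones, but stented high-flow library 3 stood 13.2 times above replicate 1. FBLN1 passed in no comparison with native: it was at -0.72 ± 0.80, -1.13 ± 0.71, -2.39 ± 0.83 and -1.17 ± 0.80 in the 4 cultured groups in the fixed order (adjusted p = 0.594, 0.278, 0.0786 and 0.373). The high-flow value passed with DESeq2 (0.0106), without a filter (0.0158), with only the groups compared (0.00743) and with the libraries of 1 count table (0.00295). The low-flow value passed with only the groups compared (0.00229) and with the libraries of 1 count table (0.0498). The value over all cultured groups was -1.35 ± 0.57 (0.106), and it passed without stented high-flow library 1 (0.0140) or replicate 3 (0.0380), without a filter (0.0334) and with the replicate number as a block (0.0466).

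**Figure D2:**
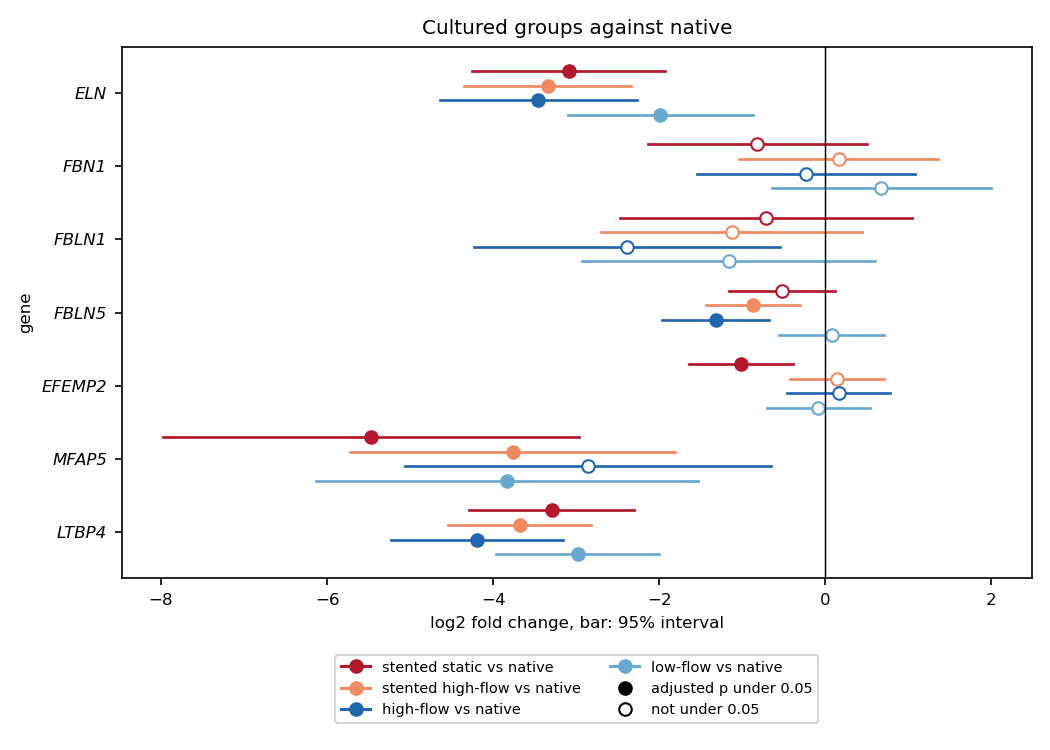
Log2 fold change against native of each tested elastic fibre gene, in the 4 cultured groups, with 95% intervals from the joint fit. ELN and LTBP4 lie below 0 in all 4 groups, from -1.99 to -4.19, and the FBN1 intervals all include 0.

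The genes, and the further lists below, were chosen with earlier results of these data known. Shares over all genes are therefore set beside their counts as a description and not as a test. Counted over the 7 tested genes, 4 fell in stented static vessels (ELN, EFEMP2, MFAP5 and LTBP4) where 7.19% of all tested genes were called lower. In stented high-flow vessels 4 fell (ELN, FBLN5, MFAP5 and LTBP4) against 13.9% of all genes. In high-flow vessels 3 fell (ELN, FBLN5 and LTBP4) against 8.86%, and in low-flow vessels 3 fell (ELN, MFAP5 and LTBP4) against 7.38%. Over all cultured groups 4 fell (ELN, FBLN5, MFAP5 and LTBP4) against 15.9%. None of the 7 rose in any of these 5 comparisons by edgeR, nor under DESeq2 or limma-voom, where edgeR called 5.54%, 10.4%, 5.94%, 5.03% and 9.79% of all genes higher, in the same order. The median log2 fold change of the 7 was -1.02, -1.13, -2.39 and -1.17 in the fixed order, where the medians of all tested genes were 0.02, 0.06, 0.02 and -0.00. ELN, FBLN1, MFAP5 and LTBP4 had all 9 cultured libraries below both native ones, as did 16.9% of all genes. By single groups, 6, 5, 5 and 4 of the 7 had all libraries of the cultured group below both native ones, as did 29.8%, 27.6%, 31.5% and 34.4% of all genes.

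The authors' deposited table of changed genes for each culture held 12 entries of these genes over the 4 comparisons with native. ELN and LTBP4 were in all 4 of the authors' deposited tables, MFAP5 in those of stented static, stented high-flow and low-flow, and FBLN1 in that of high-flow, at -2.38. The log2 fold changes of the authors' deposited tables differed from those given here by at most 0.0131, and 11 of the 12 entries were also called here. Of the 14 calls made here against native, EFEMP2 in stented static and FBLN5 in stented high-flow and high-flow were absent from the authors' tables. These calls were at -1.02, -0.87 and -1.32, where the 12 entries lay from -5.47 to -1.98. The authors' tables held 553, 1117, 1129 and 928 entries in the fixed order, where edgeR called 1955, 3737, 2272 and 1904 genes here. Whether the authors' rule for listing a gene matched the one used here was not checked.

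The next comparisons set the cultured groups against each other. Stented vessels with and without flow differ by flow, though the labels also give them different d suffixes where they give one. Of the 7 genes, EFEMP2 alone was called, higher in stented high-flow (216 ± 43.3 CPM) than in stented static vessels (96.9 ± 16.7 CPM), by 1.16 ± 0.27 or 2.23-fold (edgeR adjusted p = 0.0459), where 1.18% of all genes were called higher. All 3 stented high-flow libraries lay above both stented static ones. The call was lost in 11 of 16 alternatives, among them the fits without stented static library 1 (0.318), stented static library 2 (0.0626), stented high-flow library 2 (0.135) or stented high-flow library 3 (0.0751). FBN1 likewise had no overlap between these groups, as had 14.4% of all genes in that direction, and was at 0.98 ± 0.56 (0.380). ELN was at -0.25 (95% interval -1.23 to 0.73) and LTBP4 at -0.38 (-1.21 to 0.44), which leaves room for differences within those intervals.

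Without a stent, weaker and stronger flow were compared. None of the 7 genes passed by edgeR, where 0.104% of all genes were called in either direction. An unadjusted p under 0.05 was found for 3 of the 7, and for 1236 of all 15348 genes. DESeq2 called 1 of the 7 and 105 of all genes, and limma-voom 0 of the 7 and 17 of all genes. FBLN5 was at 1.39 ± 0.29 in low-flow against high-flow vessels (unadjusted p = 0.000597, edgeR adjusted p = 0.213, DESeq2 adjusted p = 0.00131). ELN was at 1.47 ± 0.50 (unadjusted p = 0.0133, adjusted p = 0.536) and LTBP4 at 1.21 ± 0.42 (unadjusted p = 0.0149, adjusted p = 0.542). In these 3 genes and in FBLN1 both low-flow libraries lay above both high-flow ones, and 22.9% of all genes showed that separation. The median of the 7 was 1.21, against -0.00 for all genes.

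Between stented and unstented vessels under the stronger flow none of the 7 genes was called by edgeR, DESeq2 or limma-voom, and none had an unadjusted p under 0.05. Of all genes 0% were called by edgeR, with 467 of 15348 at an unadjusted p under 0.05 and 6 called by DESeq2. ELN was at 0.11 with a 95% interval from -0.87 to 1.10, which leaves room for a change of about those sizes in either direction.

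**Figure D3:**
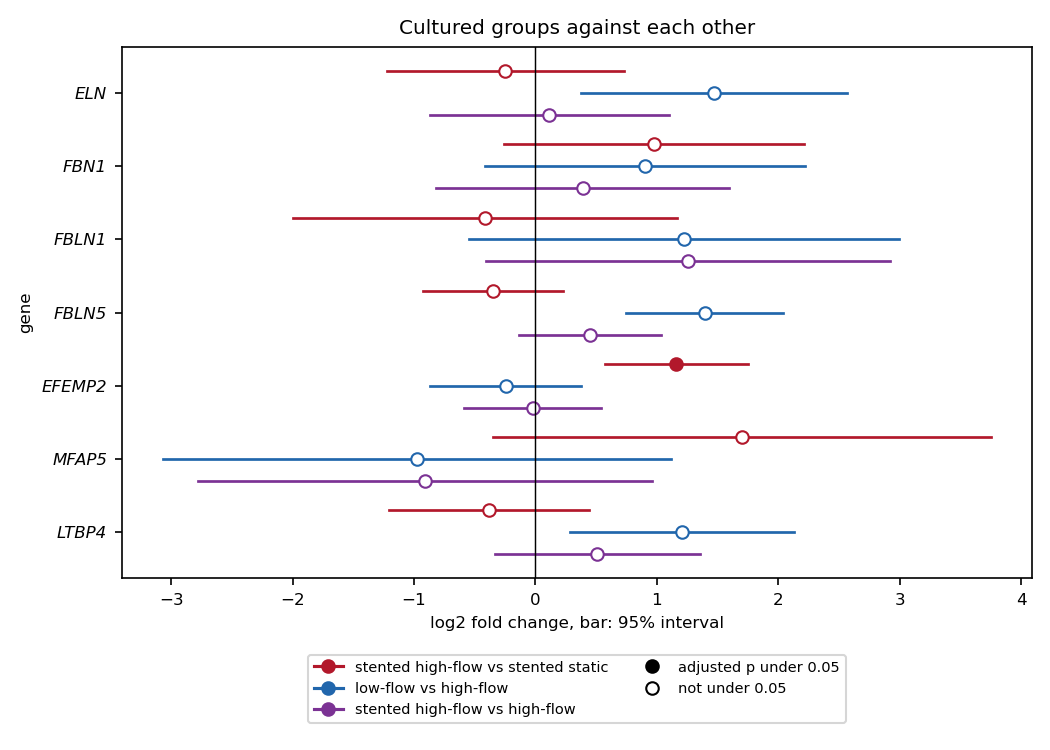
Log2 differences between cultured groups for the 7 tested elastic fibre genes, with 95% intervals, in 3 comparisons. EFEMP2 in stented high-flow against stented static vessels, at 1.16, is the single call by edgeR.

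Placed in order of mean level, ELN ran from native (5019 ± 408 CPM) through low-flow (1266 ± 454), stented static (588 ± 414) and stented high-flow (495 ± 154) to high-flow (457 ± 45.8), and the 3 lowest groups overlapped. LTBP4 ran from native (1597 ± 247.5 CPM) through low-flow (202 ± 65.5), stented static (163 ± 37.1) and stented high-flow (124 ± 57.1) to high-flow (87.4 ± 16.8), with each cultured neighbour in that order overlapping the next. MFAP5 instead had high-flow next to native, at 32.8 ± 29.1 CPM, and stented static last, at 5.37 ± 0.32 CPM, with cultured groups overlapping except low-flow and high-flow with stented static. FBLN5 had low-flow first, at 443 ± 56.6 CPM, overlapping native, and high-flow last, at 169 ± 38.9 CPM. EFEMP2 had stented static last and the other 4 groups overlapping. FBLN1 had native first, at 615 ± 19.5 CPM, and high-flow last, at 117 ± 63.4 CPM. FBN1 had low-flow first, at 1127 ± 352 CPM, and stented static last, at 401 ± 277 CPM.

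Markers of the cells that make elastin were read in the same libraries. The summed level of 8 smooth muscle markers, among them the myosin MYH11 and the actin ACTA2, was 27383 to 32896 CPM in native libraries, 459.8 to 2527 in stented static, 3432 to 5488 in stented high-flow, 1332 to 4683 in high-flow and 6613 to 6965 in low-flow. All 9 cultured libraries lay below native, as they did for 16.9% of all genes, and both low-flow libraries lay above the other 7. How many genes share that order of the cultured libraries was not counted. Of the 8 markers 6, 5, 5 and 2 fell against native in the fixed order, where 7.19%, 13.9%, 8.86% and 7.38% of all genes were called lower, and 0 of the 8 were at 0 in any group. Their part in the ELN, LTBP4 and MFAP5 results was not tested. Adventitial fibroblast markers (9 measured) summed to 4041 to 4225 CPM in native and to 2516 to 4777, 4871 to 7722, 3617 to 6796 and 4749.9 to 5198 CPM in the cultured groups in the same order. Of these, 3 rose and 4 fell over all cultured groups, where 9.79% of all genes were called higher and 15.9% lower.

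**Figure D4:**
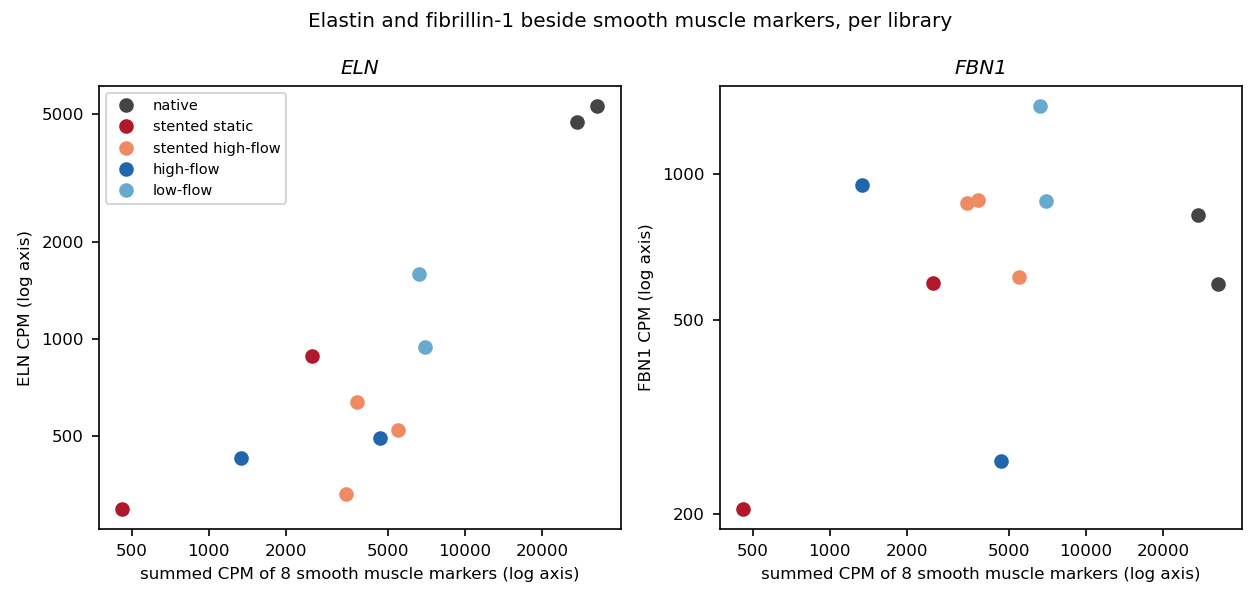
Level of ELN (left) and FBN1 (right) against the summed level of 8 smooth muscle markers, both in CPM on log axes, 1 point per library. Native libraries stand at 27383 and 32896 CPM of markers, apart from all cultured ones.

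Other cell types were read in the same way. Macrophage markers (8) summed to 419 to 431 CPM in native, 842 to 1955 in stented static, 319.9 to 667 in stented high-flow, 294 to 504 in high-flow and 744 to 889.96 in low-flow. Endothelial markers (6) summed to 738 to 843 CPM in native, 363 to 922 in stented static, 211 to 299.6 in stented high-flow, 370.2 to 519 in high-flow and 445 to 621 in low-flow. Adipocyte markers (6) summed to 1116 to 1781 CPM in native, 125 to 2076 in stented static, 33.3 to 69.0 in stented high-flow, 47.0 to 169 in high-flow and 123 to 199 in low-flow. Cardiomyocyte markers (5) summed to 81.7 and 1290.3 CPM in the native libraries and to at most 52.2 CPM in any cultured one. Markers of pericytes and Schwann cells (6) summed to 1251 to 1678 CPM in native and to at most 283 CPM in culture. Their part in the elastic fibre results was not tested.

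The wider elastic fibre machinery was read from 7 lists of 54 genes, of which 51 were matched and 49 tested. Over all cultured groups against native, 14 of the 49 rose and 10 fell, where 9.79% of all genes were called higher and 15.9% lower. The wider genes had calls in both directions, while the 7 tested elastic fibre genes above had calls in 1. With 9.79% of all genes called higher, a set of 7 can easily hold no higher call, so this contrast is no result about the 7. Of the lists, degrading enzymes had 6 of 8 tested members higher and 0 lower, and crosslinking enzymes 2 of 6 higher and 1 lower. Against native, 11, 16, 12 and 12 rose and 5, 7, 8 and 4 fell of the 49 in the fixed order of groups, where 5.54%, 10.4%, 5.94% and 5.03% of all genes were called higher and 7.19%, 13.9%, 8.86% and 7.38% lower. The numbers that fell in stented high-flow and low-flow vessels were near the share over all genes. DESeq2 called 12 higher and 13 lower of the 49 in stented static vessels, where it called 1373 higher and 1716 lower of all genes. In stented high-flow against stented static it called 12 higher and 5 lower, where it called 599 and 777 of all genes. There edgeR called 4 and 0 of the 49, and 181 and 257 of all genes.

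Lysyl oxidases form the elastin crosslinks. LOXL2 had a mean of 54.6 ± 5.08 CPM in native and of 327 ± 41.5, 690.2 ± 376, 215 ± 116 and 390.3 ± 7.91 CPM in the cultured groups, and rose in all 4. Without native library 1 or 2 the LOXL2 call was lost in stented static (0.0772 and 0.0970), high-flow (0.125 and 0.145) and low-flow vessels (0.0667 and 0.0733), and in high-flow also without high-flow library 1 (0.179). LOXL4 stood at 3.45 ± 0.65 CPM in native and at 15.7 ± 3.28, 41.7 ± 13.9, 34.8 ± 20.3 and 23.1 ± 5.10 CPM. Over the cultured groups LOXL2 rose by 2.77 ± 0.46 and LOXL4 by 2.96 ± 0.44 (adjusted p = 0.00145 and 0.000744). LOXL1, the paralogue tied to elastin upkeep, went the other way, from 175 ± 5.85 CPM in native to group means of 53.5 to 92.8 CPM (-1.44 ± 0.39, adjusted p = 0.0190), a call lost without native library 1 (0.137) or 2 (0.133). LOX itself rose in stented high-flow vessels (1.97 ± 0.60, adjusted p = 0.0346) and was at 1.46 ± 0.53 (0.0656) over all cultured groups. The stented high-flow call for LOX was lost without native library 1 (0.239), native library 2 (0.0795), stented high-flow library 1 (0.0625) or stented high-flow library 2 (0.0610).

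Among microfibril and latent TGF-beta binding proteins, 1 of 13 rose over all cultured groups and 4 fell. Of all genes 9.79% were called higher and 15.9% lower, so the number that rose was near that share. ADAMTSL2, a secreted binder of fibrillin-1 and LTBP1, fell, at -5.23 ± 0.45 (adjusted p = 2.20e-05), from 118 and 44.0 CPM in the native libraries to group means of 0.908 to 3.97 CPM. Fibrillin-2, FBN2, fell, at -2.19 ± 0.47 (0.00604), a call lost without native library 1 (0.0919). The EMILIN-family gene MMRN2, an endothelial glycoprotein, fell, at -1.45 ± 0.32 (0.00770), a call lost without native library 1 (0.0600) or 2 (0.0879). The fourth that fell was LTBP3 (-1.15 ± 0.25, 0.00632), lost without native library 1 (0.122), and the gene that rose was ADAMTSL4 (1.04 ± 0.35, 0.0494), lost without 9 of the 11 libraries taken singly. EMILIN1, which sits at the elastin-microfibril interface, was at 0.25 ± 0.29 (0.575), and MFAP2, encoding MAGP-1, at -0.34 ± 0.34 (0.503). In stented high-flow against stented static vessels LTBP2 rose from 80.1 ± 54.6 to 474 ± 225 CPM (2.57 ± 0.49, adjusted p = 0.0242), a call lost without stented static library 1 (0.130) or stented high-flow library 2 (0.0548). Of 4 other fibulin genes 1 rose over all cultured groups, where 9.79% of all genes were called higher. That was FBLN2, at 1.75 ± 0.57 (0.0442), a call lost without 7 of the 11 libraries taken singly.

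Enzymes that cleave elastin were counted in the same libraries. The gelatinase MMP9 had 0.130 and 0.0575 CPM in native libraries, at the count floor, against 16.1 ± 15.2 CPM in stented static, 195 ± 50.9 in stented high-flow, 334 ± 23.7 in high-flow and 329 ± 213 in low-flow. Macrophage elastase, MMP12, had 0 and 0.230 CPM in native and a mean of 40.1 ± 43.2 CPM in low-flow, and its call over the cultured groups was lost without native library 1 (adjusted p = 0.155) or 2 (0.0674). The lysosomal cathepsin L gene CTSL rose from 11.7 ± 2.23 CPM to group means of 68.0 to 246 CPM (3.49 ± 0.76, 0.00662), a call lost without native library 1 (0.0656) or 2 (0.0835). MMP2, MMP14 and CTSB also rose, by 2.22 ± 0.43, 2.23 ± 0.32 and 2.09 ± 0.37 (adjusted p = 0.00367, 0.000524 and 0.00215), and the MMP2 call was lost without native library 1 (0.0592) or 2 (0.0518).

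Inhibitors of these enzymes moved in both directions over all cultured groups, with 1 of 6 tested higher and 3 lower. Of all genes 9.79% were called higher and 15.9% lower. TIMP1 rose in all 4 groups, from 134 ± 16.3 CPM in native to 587 ± 210, 2712 ± 603, 3861 ± 510 and 1209.6 ± 479 CPM in the cultured groups (3.62 ± 0.39 over all, adjusted p = 9.13e-05), and its stented static call was lost without native library 1 (0.0795) or 2 (0.0583). TIMP3, which binds to the matrix, fell from 1356 ± 11.8 CPM to group means of 197 to 695 CPM (-1.73 ± 0.38, 0.00699), a call lost without native library 1 (0.0590) or 2 (0.0676). TIMP4 fell too (-2.77 ± 0.35, 0.000275). Alpha-2-macroglobulin, A2M, a plasma protease trap, fell, at -3.26 ± 0.78 (0.0107), lost without native library 2 (0.110). Stented high-flow vessels had more of the elastase inhibitor transcript SLPI than stented static ones (41.6 ± 29.8 against 2.54 ± 0.15 CPM, 4.03 ± 0.64, adjusted p = 0.0118), a call lost without stented static library 1 (0.0868). The same comparison called TIMP1 (2.21 ± 0.38, 0.0159) and MMP9 (3.59 ± 0.67, 0.0208) higher.

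Cell-surface partners and growth factors completed the lists, read over all cultured groups, where 9.79% of all genes were called higher and 15.9% lower. The fibronectin receptor subunit ITGA5 rose from 164 ± 23.2 CPM to group means of 878 to 1629 CPM (2.88 ± 0.27, adjusted p = 4.25e-05), and 3 of 9 genes of the elastin receptor and integrins list rose in all. The others were the elastin receptor subunits CTSA (1.45 ± 0.33, 0.00882) and NEU1 (1.27 ± 0.33, 0.0162), and both calls were lost without native library 1 (0.117 and 0.115) or 2 (0.0560 and 0.136). TGFB3 fell from 374 ± 66.3 CPM to group means of 30.0 to 93.8 CPM (-2.65 ± 0.32, 0.000198) and TGFB2 likewise (-1.23 ± 0.21, 0.00158), while TGFB1 was at 0.38 ± 0.25 (0.299). The TGFB2 call was lost without native library 2 (0.0958).

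**Figure D5:**
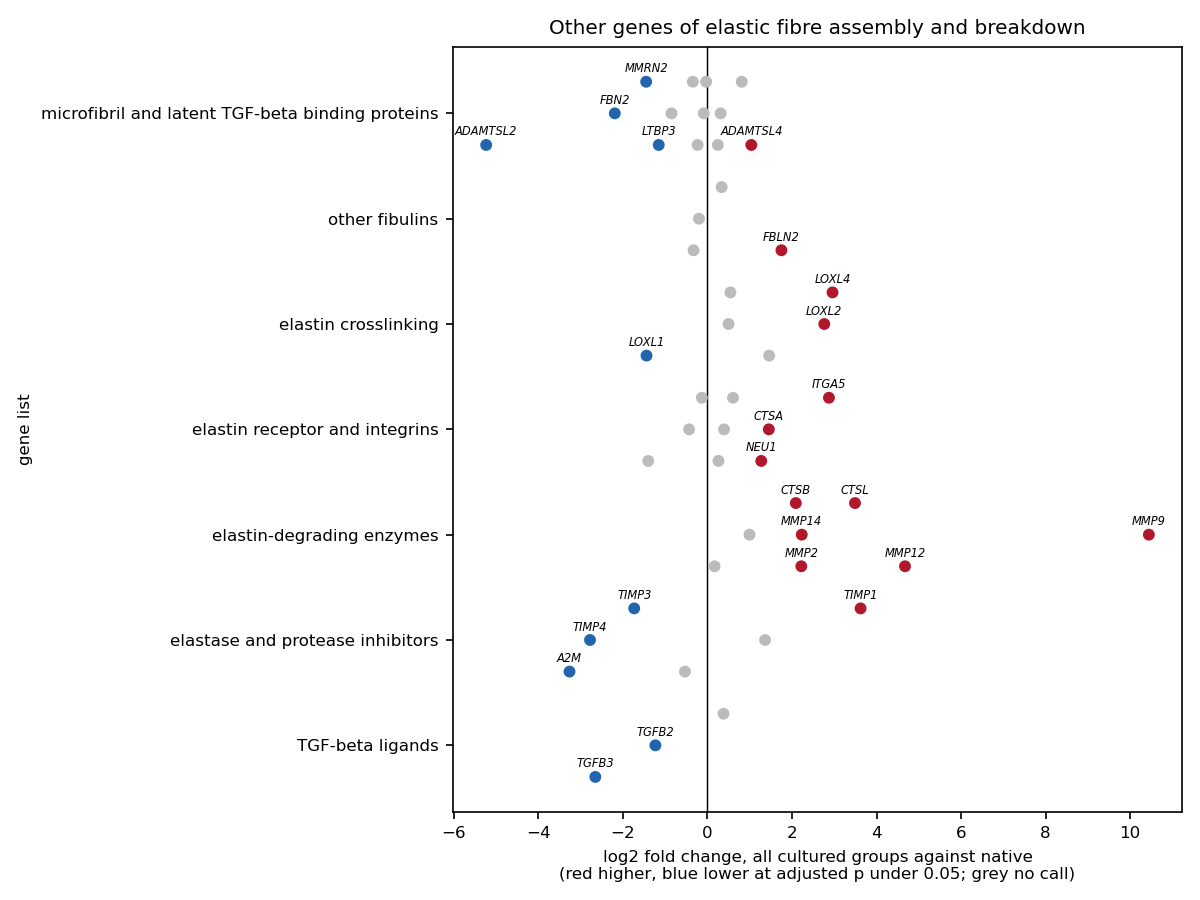
Log2 fold change of all cultured groups against native for 49 genes of 7 further lists of elastic fibre assembly and breakdown, with calls in red (higher, 14 genes) and blue (lower, 10 genes). The MMP9 and MMP12 positions depend on native counts at the floor and are not bounds.

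Genes with a level pattern closest to each member were named by the root mean square difference of centred log2 CPM over the 11 libraries, among 8395 candidates. These distances describe the libraries, share their depth and group structure, and carry no test. For ELN they were SMOC2 (0.44), ADARB1 (0.46) and SLIT3 (0.48), where the median candidate stood at 1.44. For LTBP4 they were OTUD1 (0.38), BOK (0.45) and HLA-DRA (0.46), with a median of 1.56. For FBN1 they were TENM3 (0.22), TEAD1 (0.33) and the collagen gene COL1A2 (0.38), with a median of 0.88. For FBLN5 they were TMEM245, LRP11 and ARMCX5, and for EFEMP2 they were ACTG1, HMGN1 and MAP1A (0.20 to 0.25, with medians of 0.70 and 0.61). For FBLN1 they were SOX8 (0.55), GFAP (0.60) and EPHA7 (0.64). For MFAP5 they were NR4A3 (0.96), HLA-DRA (1.04) and MCAM (1.05), farther off than for any other member. Among the members, the closest pairs were FBN1 with EFEMP2 (0.63) and ELN with LTBP4 (0.70), and the farthest was FBLN5 with MFAP5 (1.97).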

How the data were processed

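Paired-end RNA sequencing of 11 porcine coronary artery libraries was read from 2 deposited tables of gene counts, whose native columns are identical. RNA came from flash-frozen vessels, extracted on columns with DNase digestion, per the labels' protocols. The submitters' processing notes name Trimmomatic, FastQC, DESeq2 and the Sscrofa11.1 genome and no roles for them. Aligner, counting options and annotation were not given in the sources used here. For each comparison, the authors' deposited table gives log2 fold changes against native, used only as a check.

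The counts deposited by the authors went through edgeR 4.0.16 (R 4.3.3): filterByExpr (15348 genes kept), TMM scaling, 1 joint quasi-likelihood fit of the 5 groups (common dispersion 0.126, 5.02 prior and 6 residual degrees of freedom), and Benjamini-Hochberg adjustment over all genes tested. The contrast of all cultured groups weights the 4 group means equally. Standard errors are the absolute log2 fold change over the square root of F. Symbols were known for 14857 identifiers, and gene coordinates were taken by symbol from RefSeq on Sscrofa11.1. Log2 CPM used a prior count of 2. Library totals of 13496636 to 26785124 counts set a floor of 3 counts at 0.112 to 0.222 CPM; floors cover counting error only.

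Named genes were the 8 members, up to 3 called genes per further list and comparison with the largest change, and the 3 nearest patterns per member with mean log2 CPM of at least 3; LOX, EMILIN1, MFAP2, TGFB1, MMP2, MMP14, CTSB, TIMP3, LTBP3 and ADAMTSL4 were added where outside that rule. CTSK, TIMP2 and PI3 had no matching symbol, and MMP7 and SERPINA1 were not tested. The members and lists were chosen with earlier results of these data known. Alternatives were DESeq2 1.42.0, limma-voom (limma 3.58.1), scaling by RLE, by upper quartile or by library totals alone, fits without a filter or with a minimum of 10 counts in every library, a 0.01 threshold, the replicate number as a block, fits to the compared groups alone or to 1 count table alone, a prior count of 0.5 and leaving out each library. Leaving out libraries for the further lists was chosen after seeing the data. The fit was also run on simulated counts as a check of the code, with fewer changed genes than were called here against native. That run does not bear on the calls made here.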

Additional observations from a re-analysis of the deposited data

Results flagged for a closer look

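EFEMP2, the fibulin-4 gene, is listed for a closer look because 2 cultured groups differed in it by a test of the difference itself. Its log2 difference between stented high-flow and stented static vessels was 1.16 ± 0.27 (edgeR adjusted p = 0.0459), with all 3 stented high-flow libraries (166 to 243 CPM) above both stented static ones (85.04 and 109 CPM). Both stented static libraries carry the d suffix of 3 and stented high-flow replicate 3 that of 7. The call was lost in 11 of 16 alternatives, with adjusted p up to 0.318.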

How the results depend on the processing

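Groups of 2 or 3 libraries limit every result. No called elastic fibre gene changed sign in any alternative. Among 595 member values recomputed in settings other than leaving out a library, 27 lost and 14 gained a call, and among 294 with 1 library left out, 35 lost and 2 gained one. At a threshold of 0.01 the called members were 2 in stented static, 2 in stented high-flow and 1 in low-flow against native, instead of 4, 4 and 3. High-flow had 5 called, instead of 3, without a filter, with only the groups compared and with 1 count table. EFEMP2, the 1 call in stented high-flow against stented static, gave 0 with upper-quartile factors, library totals alone, at least 10 counts in every library, 0.01, only the groups compared and 1 count table. DESeq2 called 1 member in low-flow against high-flow instead of 0. The cause was not tested, except that a threshold of 0.01 is stricter.

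With 1 library left out, called members ranged from 2 to 3 in stented static, 2 to 4 in stented high-flow, 2 to 3 in high-flow, 1 to 1 in low-flow and 3 to 5 over all cultured groups against native. They ranged from 0 to 1 in stented high-flow against stented static and were 0 in the other comparisons. Over all genes, main counts of 1955, 3737, 2272, 1904, 3949, 438, 16 and 0, in the order of the 8 comparisons given, became 514 to 1671, 1542 to 4072, 752 to 1318, 361 to 556, 1693 to 4492, 95 to 784, 5 to 13 and 0 to 1 with 1 library left out, and 596 to 3089, 1684 to 4560, 771 to 3854, 550 to 4884, 2064 to 4685, 32 to 1376, 2 to 105 and 0 to 6 in the other settings.

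Library totals alone moved the median of all genes by 0.41, 0.15, 0.21, 0.27 and 0.26 in stented static, stented high-flow, high-flow, low-flow and all cultured groups against native and by -0.26 in stented high-flow against stented static. Under it uncalled values turned sign for EFEMP2 in low-flow (0.187) and over all cultured groups (0.0585) and for FBN1 over all cultured groups (0.196).

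With 1 library left out, these uncalled values spanned 0. Against native, FBN1 ranged from -0.0123 to 0.410 in stented high-flow, from -1.45 to 0.472 in high-flow and from -0.355 to 0.201 over all cultured groups, EFEMP2 from -0.00737 to 0.360 in high-flow and from -0.201 to 0.0369 in low-flow, and FBLN5 from -0.0563 to 0.206 in low-flow. In stented high-flow against stented static, ELN ranged from -0.837 to 0.754 and FBLN1 from -1.23 to 0.110. In low-flow against high-flow, MFAP5 ranged from -1.89 to 0.449. In stented high-flow against high-flow, ELN ranged from -0.109 to 0.336, FBN1 from -0.285 to 1.62, EFEMP2 from -0.196 to 0.156 and MFAP5 from -2.60 to 0.519.

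For libraries with the same replicate number, the correlation of deviations from group means was -0.33 to 0.18 over 20 pairs, above 0.1 in 6. In a group of 2 libraries the deviations mirror each other, so pairs between such groups repeat the same value. The label number 25 is shared by libraries of different replicate numbers, and pairing by animal was not tested. With the replicate number as a block, which leaves stented high-flow replicate 3 alone in its block and outside the estimate, the called members were 3, 3, 4, 3 and 4 in the 5 comparisons with native and 0 in the 3 others, MFAP5 in stented high-flow was at -5.44, and ELN in stented high-flow against high-flow was at -0.0950 instead of 0.11.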
